A study of Mus musculus with 16 samples.

Results

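Single mouse cells of the embryonic caudal ganglionic eminence (CGE) were set against reactions that started from 10 pg of adult forebrain RNA and were prepared in the same kind of microfluidic mixer. The members were the 7 spotted-array hybridisations that carried these samples, 4 of single cells and 3 of adult RNA, out of 16 arrays in the series. The cells came from OF1 mice at embryonic day 14. Each was trapped, lysed in the mixer with a detergent, reverse-transcribed there for 25 minutes and amplified by 40 cycles of PCR. The microfluidic reactions took DNase-treated total RNA extracted from a forebrain of an adult female B6.C3Sn mouse, reverse-transcribed in 7 nL for 20 minutes and then amplified by the same 40 cycles. Neither group carried a mutation or treatment in the labels. The labels name no animal for any cell, so the 4 cells are 4 single measurements and not replicates of a condition. The 3 microfluidic reactions repeat the preparation and not the animal. No p-value is therefore given for the cells against the microfluidic reactions. Strain, age, tissue, stated sex, cell lysis, reverse transcription time and scan session all changed together between these groups and cannot be told apart.

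An unamplified comparison of like ages was used beside it. It shares no array with the cells or the microfluidic reactions. It held 3 explant arrays (5 µg of RNA, OF1, embryonic day 14, tissue given as CGE, although the extraction text names the telencephalon) and 3 control arrays (15 µg of adult forebrain RNA, B6.C3Sn, female). Explant and control arrays also differed in dye labelling, print series and scan session, which cannot be told apart from age. Nothing in the labels says that the 3 samples of either group came from separate animals, so their p-values measure only the spread between these samples.

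The ganglionic eminences are transient swellings of the ventral telencephalon that produce most GABAergic neurons of the forebrain. The caudal one sends interneurons to the cortex and hippocampus and expresses transcription factors of the Dlx family together with the nuclear receptors Nr2f1 and Nr2f2. Newly born neurons leave the cell cycle, raise microtubule regulators such as Stmn1 and Dcx, and migrate. Adult forebrain holds mature neurons with synapses, myelinating oligodendrocytes, astrocytes, microglia and vessels. A whole-tissue RNA extract mixes all of these, whereas a single cell holds 1 of them.

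Cells and microfluidic reactions were amplified with the same 3 primers, which are shown because all signal on the 7 arrays passed through them. The capitals mark the stretch that the PCR primer shares with the other primers, so that cDNA from both ends was copied with 1 primer. The lower-case t run of the cDNA primer binds the poly(A) tail.
Template-switching primer: AAGCAGTGGTATCAACGCAGAGTacgcggg
cDNA synthesis primer, without its degenerate last 2 bases: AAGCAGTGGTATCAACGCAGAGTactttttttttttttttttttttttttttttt
PCR primer: AAGCAGTGGTATCAACGCAGAGT

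Signal is given as normalized log2 intensity of Cy5, so a difference of 1 is a 2-fold difference. A probe was called detected where its median foreground lay more than 2 background SD above the local background. Between 26.5% and 52.5% of measured probes were detected on the cell arrays, with cell 4 the lowest, and between 37.9% and 54.0% on the microfluidic arrays. The explant arrays had 14.8% to 29.0% of probes detected and the control arrays 64.7% to 69.3%. Saturated probes numbered 431 to 940 on cell arrays and 568 to 905 on microfluidic arrays. The number of arrays limits the precision of every value below. A probe was compared where it was detected on all cells or on all microfluidic arrays, which held for 7367 of 24109 gene probes. Of these, 6752 were detected on all microfluidic arrays, 3804 on all cells and 3189 on all 7 arrays. Probes thus entered mostly through the microfluidic arrays, which favours lower over higher calls in cells. It was called where the means differed by at least 2 log2 units (4-fold) and the 2 sets of arrays did not overlap. Where the dimmer group was not detected on any array, or the brighter one was saturated on all, only a bound is known. The fold is then given as "at least", with each undetected array of the dimmer group set to at least the lowest detected signal of that array.

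At like preparation, few probes separated embryonic cells from adult RNA. Of the 7367 compared probes, 32 were called higher in cells (0.434%) and 172 were called lower (2.33%), or 2.77% in either direction. Without the size limit, 363 probes (4.93%) lay higher in all cells than on any microfluidic array and 837 (11.4%) lay lower. The median difference over all compared probes was -0.09. The higher count rested on cell 4: without it, 180 probes were called higher and 214 lower, of 8204 compared. Of the 172 called lower, 74 were detected in no cell and 39 were saturated on every microfluidic array. Of the 32 called higher, 8 were detected on no microfluidic array. The probes closest inside the limit were Slc28a2 at -2.001 and Cnbd2 at 2.01, and the closest outside were 2900026A02Rik and Chmp2b, both at -1.99.

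**Figure D1:**
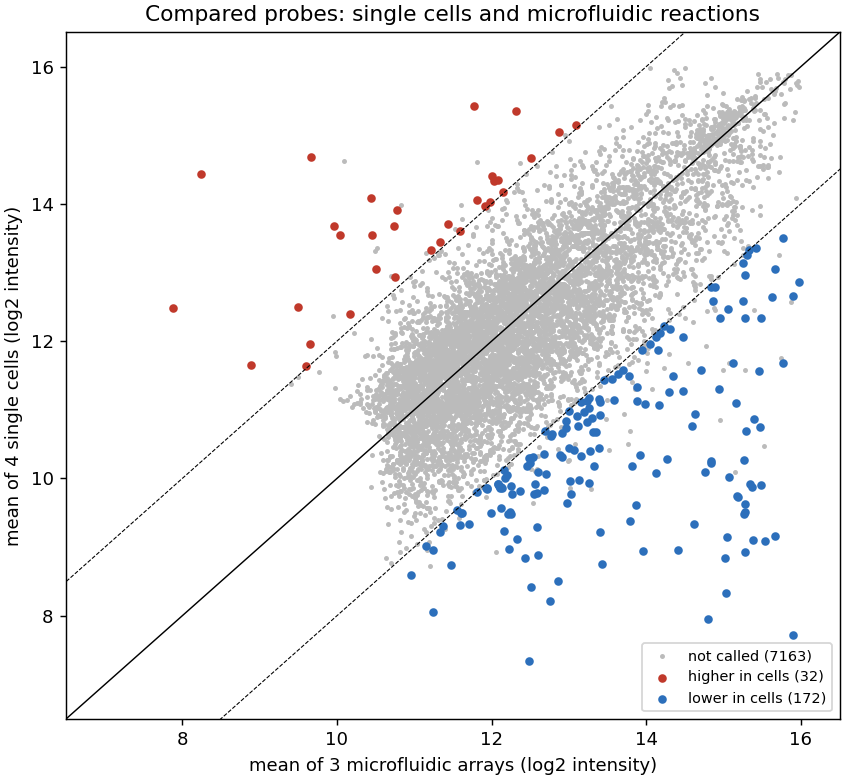
Mean normalized log2 intensity of the 4 single cells (y axis) against the mean of the 3 microfluidic arrays (x axis) for 7367 compared probes. The solid line marks equal levels and the dashed lines a difference of 2 log2 units. The 32 red and 172 blue points are the probes called higher and lower in cells; points outside the dashed lines that stay grey are probes whose arrays overlapped.

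Of 5 young-neuron markers, Stmn1 alone was called higher in the cells. Stmn1 (feature 214764), which encodes the microtubule-destabilising protein stathmin, had log2 intensities of 15.68, 12.13, 15.54 and 12.97 in cells 1 to 4, against 10.74, 9.37 and 11.20 on the microfluidic arrays. Every cell lay above every microfluidic array, cells 2 and 4 by less than cells 1 and 3, and the means differed by 3.64 (12.5-fold). The probe was saturated in 1 cell and detected on 2 of the 3 microfluidic arrays, so this fold is approximate. The explant arrays (15.57 to 15.70) lay above the control arrays (14.23 to 14.26) by 1.39 ± 0.21 (SE, n = 3 each, limma adjusted p = 0.00205). The microfluidic reactions thus read Stmn1 below every unamplified control array of adult forebrain RNA.

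Sox11 (feature 285783), a transcription factor of newly born neurons, had 15.31, 11.92, 14.34 and 13.61 in the cells, against 11.96, 12.41 and 11.65 on the microfluidic arrays. Cell 2 fell within the microfluidic range, so the difference of 1.79 was not called, and a second Sox11 probe differed by 0.03. Cd24a (feature 245805), a surface protein of migrating neuroblasts, had 12.25, 12.51, 12.93 and 11.28 in the cells, against 8.43, 10.45 and 11.84 on the microfluidic arrays. It was detected in 3 cells and on 1 microfluidic array and was not among the compared probes, and cell 4 lay below microfluidic reaction 3. Without cell 4 its difference was 2.32 and the groups did not overlap. In explant over control arrays both genes rose, Sox11 by 4.08 ± 0.28 with its probe saturated in the explant arrays, which makes the fold at least 16.9, and Cd24a by 5.28 ± 0.30 (SE, n = 3 each, limma adjusted p = 7.36e-05 and 4.2e-05).

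Dcx and Tubb3, the microtubule genes most used to mark young neurons, were detected on all 7 arrays without being called. Dcx had 13.79, 13.64, 13.34 and 11.55 in the cells, against 13.22, 13.70 and 13.55 on the microfluidic arrays, a difference of -0.41. Tubb3 had 15.39, 15.30, 14.07 and 15.42 in the cells, against 13.92, 14.40 and 14.33 on the microfluidic arrays, a difference of 0.83 with cell 3 inside the microfluidic range. The Tubb3 probe was saturated in 3 cells, so that difference is approximate. Both rose in explant over control arrays, Dcx by 3.69 ± 0.21 and Tubb3 by 2.20 ± 0.24 (SE, n = 3 each, limma adjusted p = 4.4e-05 and 0.000438). The adult reactions therefore read Dcx between 13.22 and 13.70, where the control arrays averaged 11.52.

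Over the whole list of immature and migrating neuron genes, 19 of 35 were compared, with a median difference of -0.40. Of these, 1 was called higher and none lower, beside 0.434% and 2.33% of all compared probes. Without cell 4 the median was 0.10, with Stmn1 and Cd24a called higher of 21 compared. The explant arrays differed from the control arrays at 15 of the 33 tested members of the list, all higher, with a median of 0.94. Over the compared members of the list the explant median was 1.39. Of all 13621 tested probes, 15.4% rose and 26.9% fell (42.3% in either direction). Ncam1, a cell adhesion molecule of growing neurites, had 11.13, 13.91, 12.49 and 9.11 in the cells, against 13.79, 13.98 and 13.56 on the microfluidic arrays. Its mean was 2.11 lower in cells, yet cell 2 overlapped the adult reactions. Marcksl1, which binds actin, was detected in no cell and on all 3 microfluidic arrays with overlapping values, whereas it rose by 4.68 ± 0.25 in explant over control arrays (SE, n = 3 each, limma adjusted p = 3.44e-05).

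**Figure D2:**
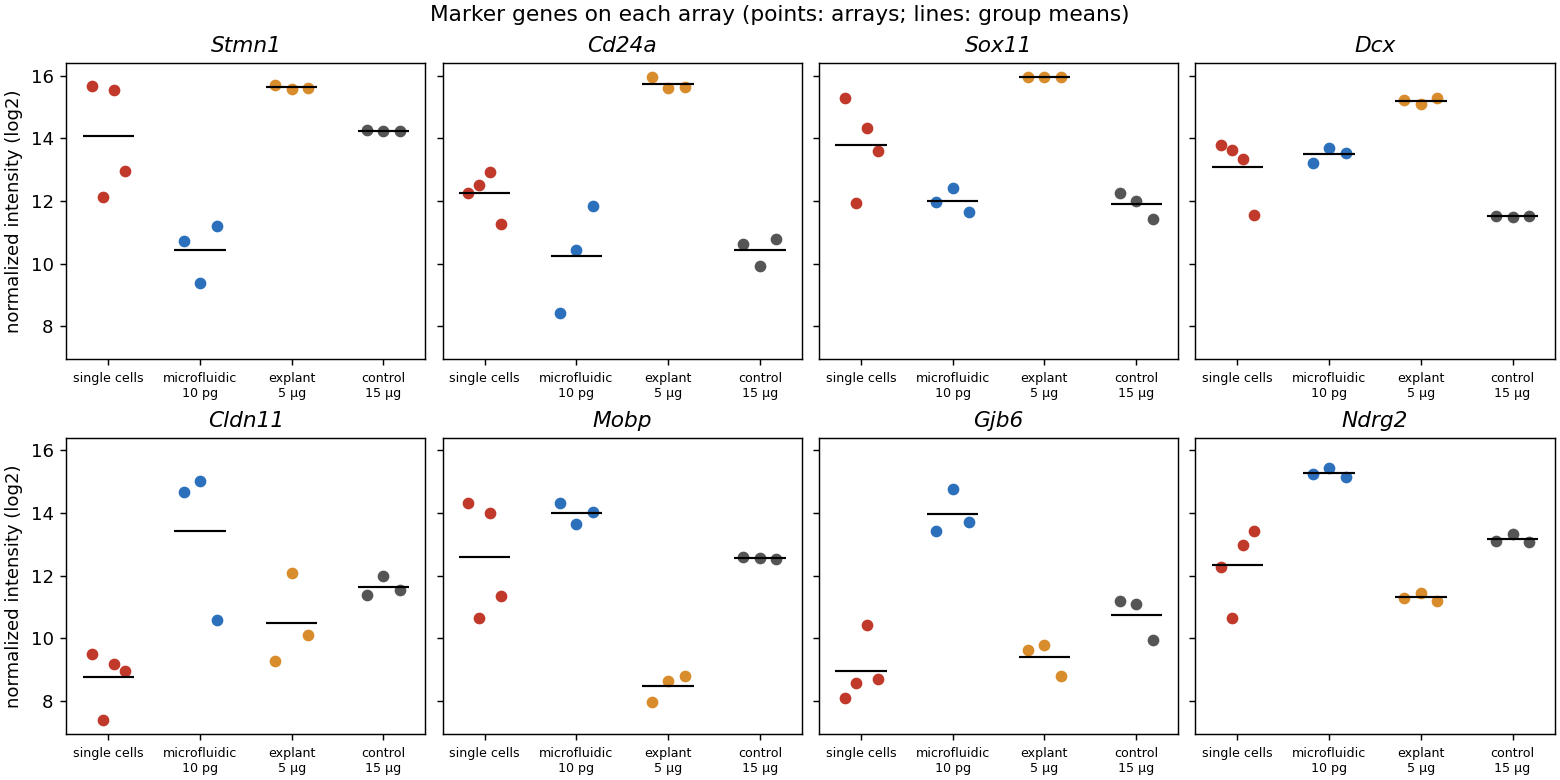
Normalized log2 intensity of 8 marker genes on each array (points) with group means (lines), for single cells, microfluidic reactions of 10 pg, explant arrays and control arrays. Stmn1 is higher in all 4 cells than on all 3 microfluidic arrays, Dcx overlaps between them, and Cldn11, Gjb6 and Ndrg2 are lower in all cells.

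Markers of the CGE itself gave no call between the cells and adult RNA. Of 23 genes of the CGE and GABAergic lineage on the array, 9 were compared and none was called, with a median difference of 0.08. Of 17 tested members, 9 rose in explant over control arrays and 1 fell, with a median of 1.31 (1.22 over the compared members). Nr2f2, the nuclear receptor that marks the CGE, was detected in cell 2 alone. Its levels were 8.86, 15.12, 8.36 and 10.08 in the cells, against 8.78, 9.56 and 9.49 on the microfluidic arrays, none of which was above background. The level of cell 2, where the probe was saturated, lay above that of every explant array (14.54 to 14.83). Nr2f1 had 12.07, 11.97, 11.68 and 9.67 in the cells, against 12.15, 11.96 and 12.02 on the microfluidic arrays. Cell 4 stood below the rest, and the other cells were close to the adult reactions.

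The Dlx homeobox genes and the GABA-synthesising enzymes gave the same picture by gene. Dlx2 was detected in all cells at 12.58, 14.64, 12.40 and 13.97, and on both microfluidic arrays that measured it at 13.49 and 13.13. Dlx1 was detected in cell 4 alone (12.24) and on microfluidic arrays 1 and 3 (12.77 and 13.71). Dlx5 was near the detection limit in both groups, detected in 2 of the 3 cells that measured it and on 2 of 3 microfluidic arrays. Gad1 was detected in 1 cell and on 2 microfluidic arrays, and Gad2 in 2 cells and on 1 microfluidic array. None of the 5 was called, and of these Dlx2 alone met the detection rule for a comparison, while Dlx1 and Dlx2 rose in explant over control arrays by 3.53 and 1.22 and Dlx5 by at least 19.2-fold (limma adjusted p = 0.00012, 0.00624 and 3.7e-05). The label of the cells as CGE thus finds Dlx2 in each cell, Nr2f2 in 1 cell, and no marker of the lineage called apart from adult forebrain RNA. By overlap alone Gad2 lay higher in all cells (11.31, 11.69, 11.64 and 11.40, against 9.76, 10.85 and 11.06 on the microfluidic arrays), with 2 cells above background, and a second Gad2 probe averaged lower, by -1.21. Htr3a, a serotonin receptor of CGE-derived interneurons, averaged 0.62 higher without overlap. The larger differences of the list went the other way. Its 9 compared members ran from -1.61 to 0.70, with 5 above 0 and 4 below.

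Genes of dividing and progenitor cells gave 1 call. Of 7 compared neural progenitor genes none was called, with a median difference of 0.04 and overlapping summed intensities, beside 9 of 12 tested members that rose in explant over control arrays. Nes, the intermediate filament of neural stem cells, averaged 0.70 lower in cells, and Sox1, a progenitor transcription factor, averaged 0.49 higher, both with overlap. Mki67, the standard proliferation marker, was not detected in any cell or microfluidic reaction and rose by 1.83 ± 0.24 in explant over control arrays (SE, n = 3 each, limma adjusted p = 0.001). Of 16 compared cell cycle genes, 1 was called lower, beside 2.33% of all compared probes, and the median difference was -0.30. The called gene was Cdca8, a subunit of the chromosomal passenger complex. The summed linear intensity of all 42 cell cycle genes went the other way, 209000 to 324000 in cells, against 136000 to 159000 on microfluidic arrays. Cdca8 was detected in no cell and lay at 12.32, 12.83 and 11.52 on the microfluidic arrays, at least 2.97-fold lower in cells. Top2a, the topoisomerase that untangles replicated chromosomes, had 11.68, 11.42, 12.13 and 10.82 in the cells, against 12.15, 12.96 and 13.67 on the microfluidic arrays, with no overlap but a difference under the limit.

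Among 16 compared chromatin genes of dividing and embryonic cells none was called, and the median difference was 0.28. The same list had 14 of 21 tested members higher and none lower in explant over control arrays. The explant median was 2.47 over the tested members and 1.62 over the compared ones. Hmgn2, a nucleosome-binding protein, had 10.42, 11.02, 9.89 and 11.41 in the cells, against 12.52, 11.45 and 12.34 on the microfluidic arrays. All cells were thus below all adult reactions, by 1.42 in the means. Hmgn2 rose by 3.41 ± 0.25 in explant over control arrays (SE, n = 3 each, limma adjusted p = 0.000102), which is the opposite direction. Smarcc1, a core subunit of the BAF remodelling complex, showed the same pair of directions, -1.25 in cells and 2.35 ± 0.32 in explant arrays (SE, n = 3 each, limma adjusted p = 0.00131).

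Mature-neuron genes, of which 17 were compared, shifted little as a list. The median over the compared members was -0.28 in cells and -1.64 in explant over control arrays. Over the 47 tested members the explant median was -2.37, where 38 fell and none rose. Slc17a7, the vesicular glutamate transporter of cortical excitatory neurons, had 15.93, 14.39, 15.49 and 15.06 in the cells, against 13.74, 14.32 and 13.69 on the microfluidic arrays. Every cell was above every adult reaction, although cell 2 was so by little. Slc17a7 fell by at least 1.18-fold in explant over control arrays (limma adjusted p = 0.0321). Camk2a, a synaptic kinase of mature excitatory neurons, averaged 1.89 higher in cells without overlap, under the limit for a call, and by 0.40 on a second probe. It passed the limit with median centring (2.20) and in 4 other alternatives. The first Camk2a probe differed by only -0.075 in explant over control arrays (limma adjusted p = 0.816). The second, saturated on all control arrays, fell at least 17.2-fold there (limma adjusted p = 0.000143). Snap25, a synaptic vesicle fusion protein, was detected in 2 cells and on 2 microfluidic arrays, with a difference of -0.02. No member of the adult striatal and peptidergic neuron list (11 compared, median -0.07) was called, nor of the pallial and glutamatergic list (7 compared, median -0.02), while 13 of 18 and 4 of 10 tested members fell in explant over control arrays and none and 2 rose.

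Markers of adult glia were lower in cells for a few genes. Cldn11 (feature 253625), a tight-junction protein of myelin, was detected in no cell at 9.51, 7.37, 9.18 and 8.96, and was detected on all microfluidic arrays at 14.68, 15.01 and 10.58. The groups did not overlap, and the cells were at least 6.83-fold lower. Microfluidic reaction 3 was closer to the cells than the other two. In explant over control arrays Cldn11 differed by -1.13 ± 0.65 (SE, n = 3 each), which did not pass the test (limma adjusted p = 0.194). The other defining myelin genes were not called. Mobp had 14.31, 10.64, 14.01 and 11.36 in the cells, against 14.33, 13.66 and 14.03 on the microfluidic arrays. Cells 1 and 3 thus read this myelin gene as high as adult RNA did, while it fell by at least 2.21-fold in explant over control arrays (limma adjusted p = 7.7e-05). Mbp, the main myelin protein gene, was detected in 2 cells and on 1 microfluidic array, where all 3 control arrays were saturated.

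Over the 30 oligodendrocyte genes, 9 were compared, 1 was called lower (beside 2.33% of all compared probes), and the median difference was -0.56. Their summed linear intensity ran between 89800 and 178000 in cells, against 154000 to 164000 on microfluidic arrays, so the ranges overlapped. Of 14 compared astrocyte genes, 3 were called lower in cells, beside the same 2.33%. These were the gap-junction proteins Gjb6 and Gja1, and Ndrg2, a cytosolic astrocyte protein. The median of the list was -0.39. Gjb6 was detected in no cell and was at least 9.90-fold lower, Gja1 was at least 8.70-fold lower, and Ndrg2, detected in all cells, was at least 7.63-fold lower. All of these fell in explant over control arrays, Gja1 by at least 2.18-fold and Ndrg2 by at least 3.08-fold, with Gjb6 too near background for a bound (limma adjusted p = 0.00765, 0.000745 and 0.0359). Mt3, a metallothionein of astrocytes and neurons, went the other way, with 12.85, 12.66, 12.26 and 14.51 in the cells, against 11.64, 10.93 and 12.07 on the microfluidic arrays. It averaged 1.52 higher without overlap, and 5 of the 14 compared genes were above 0. The summed intensity of all 27 astrocyte genes was 85600 to 126000 in cells, against 201000 to 234000 on microfluidic arrays, with no overlap. By this sum 6 of the 20 lists lay lower in cells without overlap, also those of mature neurons, choroid plexus, oxidative phosphorylation, translation factors and the stress response, and the cell cycle list alone lay higher. Linear sums are carried by the brightest members and leave out members that an array did not measure. No sum over all probes is set beside them. Gfap and Slc1a2, the filament and glutamate transporter that define astrocytes, were below background in every cell and on every microfluidic array, and both fell in explant over control arrays. In the tissue extracts, fewer cells of a type and less RNA per cell cannot be told apart.

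The remaining cell type lists gave at most 1 call each, beside 2.33% of all compared probes called lower. C1qb, a complement protein of microglia, was called lower (detected in no cell, at least 1.94-fold) with a call lost in 5 of 15 alternatives, such as at -1.19 without background correction, 1 of 4 compared microglial genes with a median of -0.10, beside 5 of 10 tested members that fell in explant over control arrays. Csf1r, the receptor that microglia need for survival, had 12.60, 12.19, 12.07 and 14.10 in the cells, against 11.62, 10.05 and 10.81 on the microfluidic arrays, so this gene lay higher in every cell. Its difference of 1.91 missed the limit and passed it in 5 alternatives, at 2.32 with median centring and 2.38 with quantile normalization over the 7 arrays. No endothelial or pericyte gene was called (12 compared, median -0.27), where 7 of 19 tested members fell and 1 rose in explant over control arrays. Tfrc, the transferrin receptor, was the 1 call of 4 compared erythroid genes (median -0.66) and was at least 4.18-fold lower in the 3 cells that measured it. The Tfrc call was lost in 8 of 15 alternatives, with differences of -1.58 without background correction, -1.70 with median centring and -1.84 with quantile normalization over the 7 arrays. None of 4 compared choroid plexus genes was called (median -0.88), and 5 of 10 tested members fell in explant over control arrays. Ttr, the transport protein that defines that epithelium, was detected in none of the 3 cells that measured it and on all microfluidic arrays, at least 2.55-fold lower without reaching the limit for a call.

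**Figure D3:**
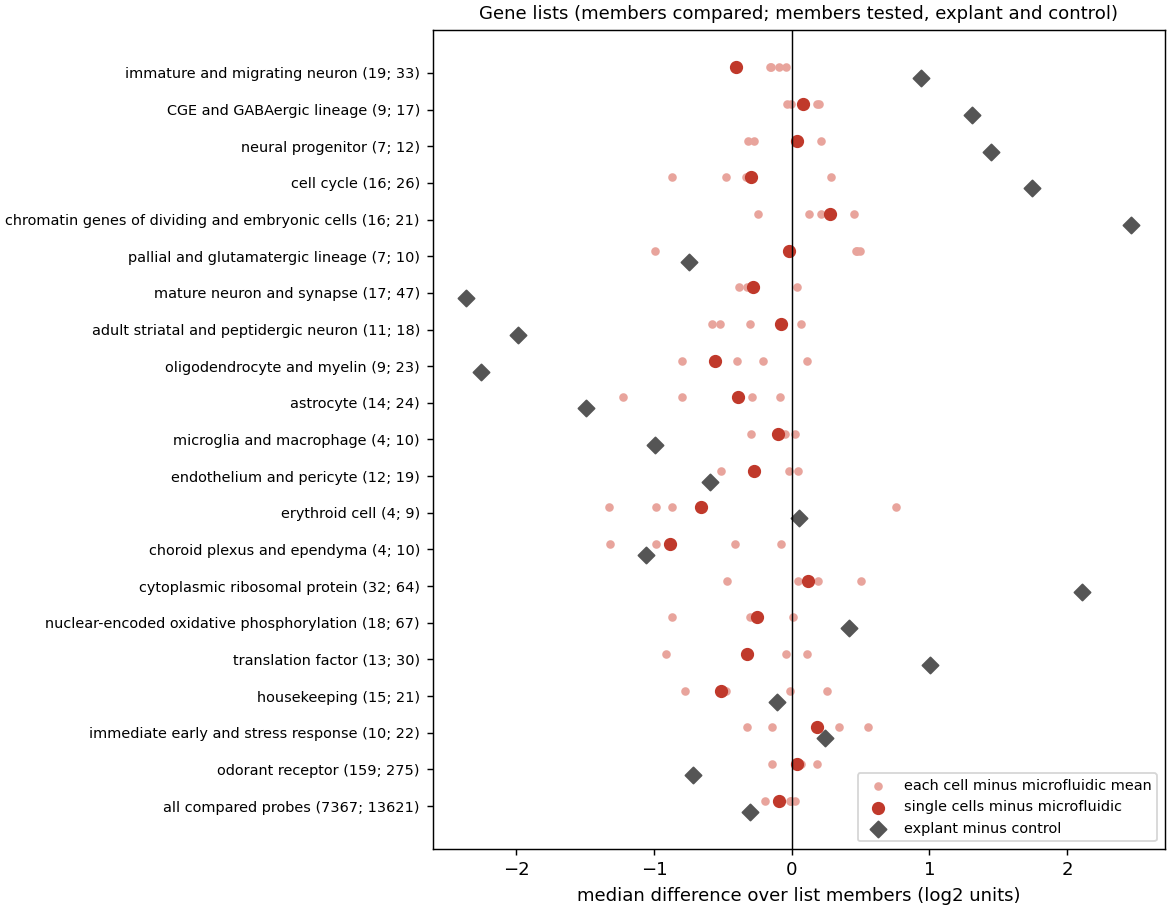
Median difference in log2 units over the members of 20 gene lists and over all compared probes: single cells minus microfluidic reactions (large red points, with each cell in light red) and explant minus control arrays (grey diamonds). Numbers in brackets give the members compared and the members tested. The medians of the cells lie between -0.88 and 0.28 (between -0.72 and 0.33 without cell 4), those of the explant arrays between -2.37 and 2.47. The 2 sets of medians cover different members. Over the compared members alone, the explant medians, not drawn here, lie between -1.64 and 2.63.

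The sign of several list medians changed when cell 4 was left out, which also changed the members compared. Medians without it were 0.04 for the cell cycle list (19 compared), 0.25 for endothelium and pericyte (13) and 0.17 for translation factors (14). They were 0.09 for microglia (5), 0.33 for the pallial list (10) and -0.02 for the chromatin list (17). Each lay on the other side of 0, and the median over all compared probes was 0.0059. With all cells, the microglial median of cell 4 alone was 0.03, already above 0.

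Genes that every cell uses showed wide scatter by gene and small shifts by list. Of 32 compared cytoplasmic ribosomal protein genes none was called, with a median difference of 0.12. Of 64 tested members, 50 rose and 1 fell in explant over control arrays (median 2.11, or 1.86 over the compared members). Single ribosomal genes differed strongly among the cells. Rps2 had 15.31, 9.40, 15.81 and 15.39 in the cells, against 10.50, 11.15 and 10.84 on the microfluidic arrays. Rpl34 had 8.25, 9.11, 13.67 and 15.98 in the cells, against 15.97, 15.89 and 15.35 on the microfluidic arrays. In Rps2 cell 2 was the low one, in Rpl34 cells 1 and 2 were low and cell 4 was as high as adult RNA. Gapdh, a glycolytic enzyme gene spotted several times, was even: 13.10, 13.34, 12.92 and 12.67 in the cells, against 12.94, 13.08 and 13.23 on the microfluidic arrays.

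Of 15 compared housekeeping genes 1 was called lower, again the Tfrc call that most alternatives lost, with a median of -0.51, and 5 of 21 tested members rose and 3 fell in explant over control arrays. No nuclear-encoded gene of oxidative phosphorylation was called (18 compared, median -0.26), where 18 of 67 tested members rose and 4 fell in explant over control arrays. Among translation factors 1 of 13 was called lower, Eif1b, with a median of -0.33, where 17 of 30 tested members rose and 1 fell. Of 10 compared immediate early and stress response genes 2 were called lower, Zfp36 and Jund, with a median of 0.18. Over all compared probes the share called lower was 2.33%. Zfp36, which promotes decay of AU-rich mRNAs, had 10.16, 11.28, 10.06 and 12.84 in the cells, against 14.03, 14.72 and 13.20 on the microfluidic arrays. It was 7.46-fold lower in cells and did not differ in explant over control arrays beyond the test (0.04, limma adjusted p = 0.913). Jund, a subunit of the AP-1 transcription factor, was 6.38-fold lower in cells, a call lost without microfluidic reaction 2 (-1.64) and without background correction (-1.97). Its mean was 0.65 higher in explant over control arrays (limma adjusted p = 0.0447), although it was below background on all explant arrays.

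The largest higher value belonged to Hspa12a, a distant member of the Hsp70 family. It had 13.98, 15.25, 14.82 and 13.71 in the cells and was below background on all microfluidic arrays (7.72, 9.04 and 7.95), at least 18.3-fold higher. The control arrays of adult forebrain read it at 14.71 to 15.22, and it fell by 2.56 ± 0.25 in explant over control arrays (SE, n = 3 each, limma adjusted p = 0.000319). Hspa12a was therefore not detected in the amplified adult reactions but bright on the unamplified adult arrays. Ulk2, a kinase that starts autophagy, had 12.21, 12.45, 13.09 and 12.20 in the cells, against 7.74, 8.77 and 7.15 on the microfluidic arrays, where it was below background, at least 4.75-fold higher. The control arrays read Ulk2 at 9.49 to 10.01.

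Among the other genes called higher, Cct8, a subunit of the chaperonin that folds tubulin and actin, had 12.18, 12.34, 14.76 and 14.90 in the cells, against 9.34, 10.53 and 10.26 on the microfluidic arrays, all 3 below background. It was at least 9.33-fold higher and rose by 1.90 ± 0.41 in explant over control arrays (SE, n = 3 each, limma adjusted p = 0.00833), so that Stmn1 and Cct8 were the 2 of these 12 that passed in the same direction in both comparisons. Brca1, a DNA repair gene, had 11.998, 12.02, 12.28 and 11.53 in the cells, against 9.56, 10.25 and 9.14 on the microfluidic arrays, at least 3.28-fold higher. It had 11.74 to 12.28 on the explant arrays, against 9.08 to 9.46 on the control arrays, without being tested there because no group was detected throughout. Pitpna, a phosphatidylinositol transfer protein, was even among the cells at 13.50, 13.47, 13.63 and 14.09, against 12.87, 8.76 and 8.26 on the microfluidic arrays, where reaction 1 alone was detected. Armcx4 had a similar pattern, with microfluidic reaction 2 at 7.65 and the other two at 13.91 and 13.76. For Yars, the tyrosyl-tRNA synthetase, reaction 3 was the low one at 7.35 and the others had 12.16 and 12.02. In these 3 genes the difference thus rested on 1 or 2 adult reactions with low signal: without reaction 2 Armcx4 differed by 1.59, and without reaction 3 Yars by 0.96, so that both calls were lost. Without background correction the calls of Yars, Brca1, Smim18 and Tfcp2 were lost as well. Smim18, Arap2, Tfcp2 and Arl4d completed the 12, with Smim18 at least 4.77-fold higher and the others differing by 3.14, 2.31 and 2.27. Cell 4 was not measured for Arap2, and second probes of Arap2 and Arl4d differed by -1.62 and -2.08, the other way.

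Among the 12 genes with the lowest differences, 11 were saturated on every microfluidic array and 8 were detected in no cell. Scn2b, an auxiliary subunit of neuronal sodium channels, was below background in every cell (8.09, 7.56, 8.10 and 7.14) and saturated on every microfluidic array (15.76, 15.98 and 15.97), at least 38.1-fold lower. The unamplified control arrays read it at 8.97 to 10.00, near their detection limit. Ddn, the gene of the postsynaptic protein dendrin, had 8.96, 8.69, 11.33 and 9.94 in the cells, against 14.69, 15.98 and 14.90 on the microfluidic arrays, at least 21.3-fold lower. Ddn also fell in explant over control arrays (limma adjusted p = 0.00158), where it was below background on all explant arrays. Of the cells, 1 had Ddn above background, and the same was true of Sdc4 and Ccdc92. Sdc4, a heparan sulphate proteoglycan of the cell surface, had 9.05, 10.30, 8.11 and 8.94 in the cells, against 15.39, 15.73 and 15.02 on the microfluidic arrays, at least 25.6-fold lower. It fell in explant over control arrays by at least 2.65-fold, and Ccdc92, at least 20.4-fold lower in cells, fell by at least 2.62-fold (limma adjusted p = 0.00233 and 0.000327).

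The probes shown for Pdcd4, Fbxw7 and Gpalpp1 rose in the unamplified comparison. Pdcd4, an inhibitor of translation, was detected in no cell (7.72, 9.61, 8.78 and 10.23) and lay at 15.09, 15.61 and 15.91 on the microfluidic arrays, at least 29.5-fold lower. It rose by 1.60 ± 0.44 in explant over control arrays (SE, n = 3 each, limma adjusted p = 0.0225). Fbxw7, a substrate receptor of an SCF ubiquitin ligase, was at least 24.6-fold lower in cells and rose by 1.29 in explant arrays (limma adjusted p = 0.0177). A second Fbxw7 probe was at least 1.40-fold lower in cells with overlap, and differed by 0.24 in explant over control arrays (limma adjusted p = 0.649). A second B3galt1 probe was below background on all 7 arrays. Gpalpp1 was at least 13.5-fold lower in cells and rose by 1.19 in explant arrays (limma adjusted p = 0.0098). A second Gpalpp1 probe, detected in 1 cell, averaged 0.79 higher in cells than on the 1 microfluidic array that measured it, where it was not detected. That probe differed by -0.20 in explant over control arrays (limma adjusted p = 0.583). B3galt1, Spry2, Eif1b, Impact and Canx, with roles in glycan synthesis, growth factor signalling, start codon choice, translational control and protein folding, were at least 20.8-, 21.0-, 24.4-, 18.1- and 24.5-fold lower in cells. The first 4 did not pass the test in explant arrays, and Canx was not tested there. Impact was low in 3 cells (7.79, 9.20 and 8.76) and at 13.87 in cell 4, the 1 cell in which it was detected.

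**Figure D4:**
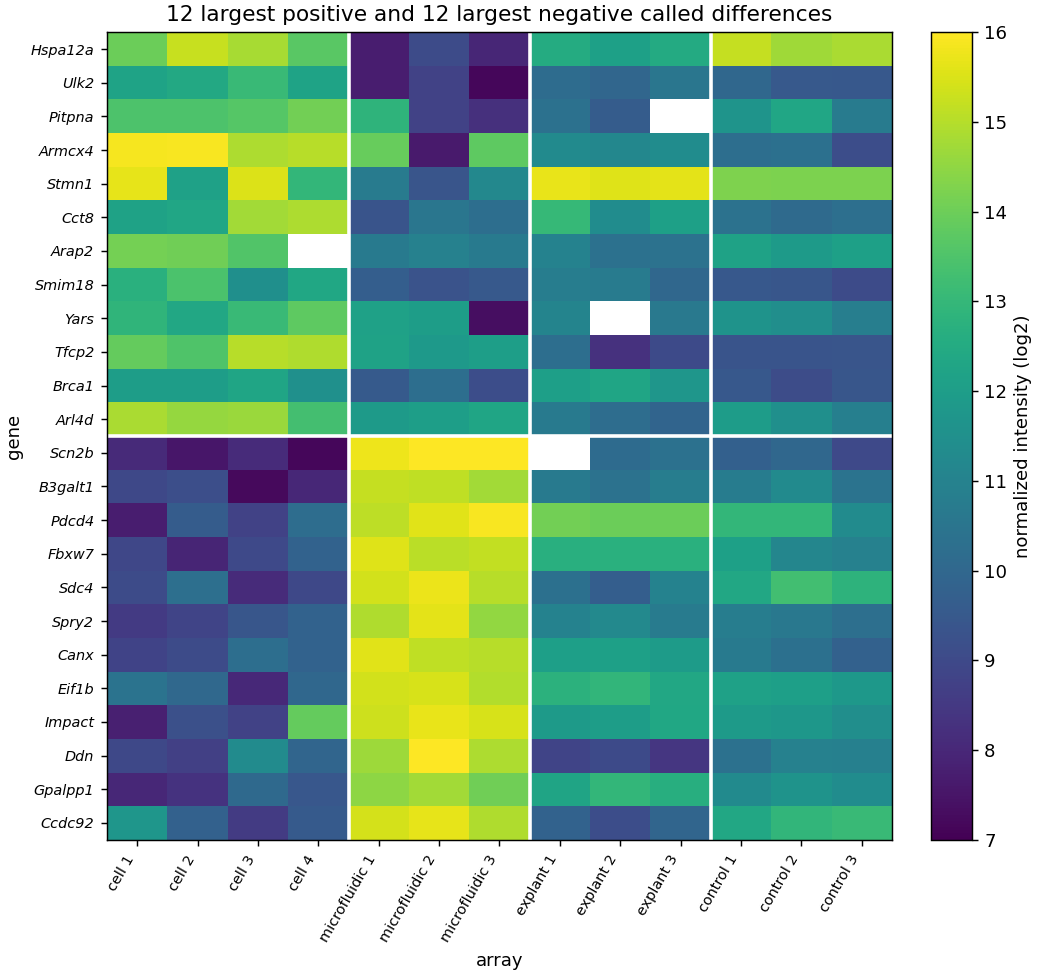
Normalized log2 intensity (colour) on 13 arrays for the 12 largest positive and 12 largest negative called differences among named genes, ordered by size; white cells were not measured. The lower block is dark in the cells and bright on the microfluidic arrays.

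The directions of called probes were set beside the unamplified comparison. Of 31 probes called higher with values on both sides, 15 (48.4%) were also higher in explant over control arrays, beside 42.9% of all 7291 compared probes. Of 171 called lower, 88 (51.5%) were also lower, beside 57.1%. Of the 19 tested probes called higher, 2 (10.5%) passed limma in the same direction and 7 (36.8%) in the opposite one, beside 13.9% and 26.7% of all compared and tested probes. Of the 135 tested probes called lower, 30 (22.2%) passed in the same direction and 22 (16.3%) in the opposite one, beside 26.7% and 13.9%. By sign, the share was above that of all compared probes for those called higher and below it for those called lower, on few probes. By limma passes, both sets passed less often in the same direction than all compared probes, and more often in the opposite one. None of these differences was tested, and no direction is read from them. Without cell 4 the shares with the same sign were 52.2% of those called higher, beside 43.9% of all compared probes, and 53.1% of those called lower, beside 56.1%. Of the probes called higher and tested without cell 4, 23.0% passed in the same direction, beside 14.4%, and 30.3% in the opposite one, beside 26.7%. Across 5323 probes the 2 differences had a Pearson correlation of 0.0385, given as a description, since genes are not independent.

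Correlations between arrays were higher within a preparation than within a tissue of origin. Over compared probes, the median Pearson correlation was 0.63 between cells, 0.60 between a cell and a microfluidic reaction, and 0.77 between microfluidic reactions. It was 0.19 between a cell and an explant array, 0.21 between a cell and a control array, and 0.73 between an explant and a control array. The compared probes were selected on the amplified arrays, and arrays of 1 preparation share primers and, in part, scan session. Cell 4, scanned in a session of its own and the cell with the fewest detected probes, correlated with the other cells at 0.46 to 0.59. Without it, cells correlated with each other at a median of 0.77 and with microfluidic reactions at 0.61. The median SD over probes was 0.66 between cells, 0.42 between microfluidic reactions, 0.40 between explant arrays and 0.28 between control arrays. Whether the scan session has a part in the position of cell 4 was not tested.

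Odorant receptor genes, which are used by olfactory sensory neurons of the nose and are a large family of similar sequences, were detected often on the amplified arrays. Of their measured probes, 55.3%, 67.5%, 45.6% and 33.8% were detected in cells 1 to 4, and 62.7%, 50.1% and 65.4% in microfluidic reactions 1 to 3. On each of these 7 arrays that share lay above the share of all gene probes. On each explant array (13.8%, 6.27% and 14.6%) and each control array (54.7%, 49.6% and 51.4%) it lay below the share of all gene probes. On microfluidic arrays 2 and 3 only 353 and 347 of 651 odorant receptor probes were measured, because the rest were marked bad. Of 159 compared odorant receptor genes, 1 was called higher and 2 were called lower, with a median difference of 0.04, while 110 of 275 tested members fell and 10 rose in explant over control arrays.

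**Figure D5:**
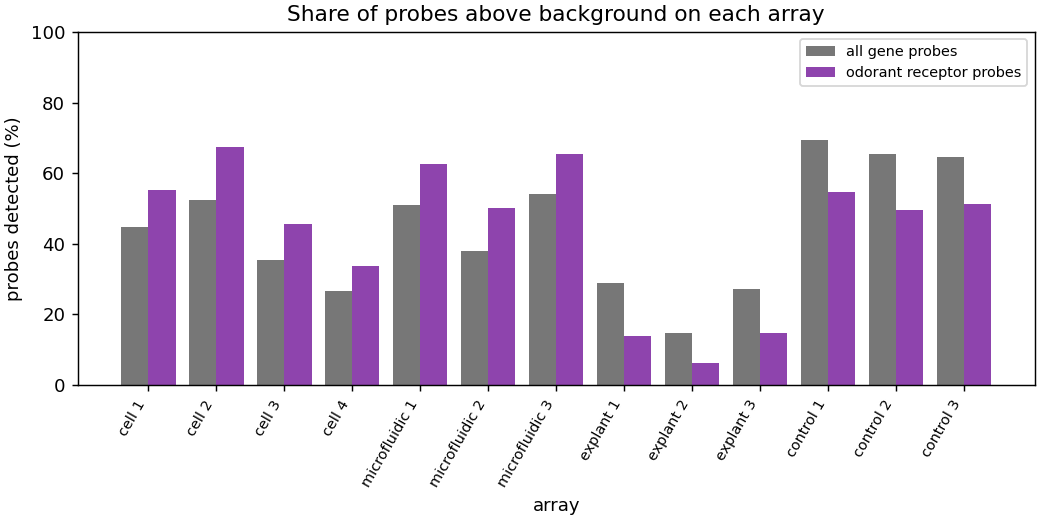
Percent of measured probes detected on each array for all gene probes (grey) and odorant receptor probes (purple). The purple bar is the taller on all cell and microfluidic arrays and the shorter on all explant and control arrays.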

How the data were processed

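The files are scanner outputs of 1-colour (Cy5) spotted arrays of 25344 spots and 24109 gene probes. Per the file headers they hold median foreground and background intensity per spot, quantified with Mapix by the authors and not normalized. The deposited table of the series holds the authors' signal values, whose normalization is not given in the sources used here. Aligners and genome builds do not apply, and no coordinates are given.

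Spots marked bad were dropped unless saturated. Background was corrected with limma 3.58.1 (R 4.3.3, normexp, offset 50), spots of a feature were averaged, the 16 arrays were quantile normalized and log2 was taken. Probe names came from RefSeq accessions (15453 probes), the platform table (4657) or the files (704); 3295 probes stayed unnamed. Each gene is shown by its brightest probe over the 7 arrays. Cells and microfluidic reactions were described without a test. Explant and control arrays were tested with limma (two-sided, Benjamini-Hochberg adjusted p under 0.05, 13621 probes detected on all arrays of a group). The programs were tested on simulated data.

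Genes named were the 12 highest and 12 lowest called differences among plain gene symbols (no clone or model names), at most 4 compared members per list (20 lists, the largest differences) and 19 anchor genes. Genes outside this rule (Htr3a, Slc1a2, Slc28a2, Cnbd2, Chmp2b, 2900026A02Rik) are markers or lie at the limit. Results for 2 genes that the rule would name are not reported here. The members, lists and genes were chosen with earlier results of these data known. Alternatives in background correction, normalization, detection, threshold, spots marked bad and arrays left out were tried.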

Additional observations from a re-analysis of the deposited data

Results flagged for a closer look

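Several genes moved in opposite directions in the 2 comparisons. Every cell lay on one side of every microfluidic reaction, and every explant array on the other side of every control array. The difference between the comparisons was not tested, and the share of all probes with this pattern is not given here. Of all compared probes, 4.93% lay higher and 11.4% lower in cells without overlap. Cells lay above the microfluidic reactions, and explant below control arrays, for Hspa12a (6.20 in cells, -2.56 in explant arrays), Pitpna (3.71 and -1.60), Arap2 (3.14 and -1.49), Arl4d (2.27 and -1.17), Slc17a7 (1.30 and -1.03) and Csf1r (1.91 and -1.23), all in log2 units. Cells lay below, and explant arrays above, for Scn2b (-8.18 and 0.68), Pdcd4 (-6.45 and 1.60), Fbxw7 (-6.35 and 1.29), Canx (-5.78 and 1.78), Eif1b (-5.64 and 0.69), Gpalpp1 (-5.45 and 1.19), Top2a (-1.42 and 4.30), Hmgn2 (-1.42 and 3.41), Smarcc1 (-1.25 and 2.35) and Jund (-2.67 and 0.65). These are differences between group means of normalized values. Where a gene was below background on all cells or all microfluidic arrays only the direction and a bound hold: at least 4.20 for Hspa12a, 5.25 for Scn2b, 4.88 for Pdcd4, 4.62 for Fbxw7, 4.62 for Canx, 4.61 for Eif1b and 3.76 for Gpalpp1. Pitpna, Arap2, Arl4d, Slc17a7, Csf1r, Scn2b and Jund were below background on all explant arrays. Second probes of Arap2, Arl4d and Gpalpp1 differed the other way in cells (-1.62, -2.08 and 0.79). The second Fbxw7 probe overlapped between cells and microfluidic reactions.

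One cell stood apart from the other 3 by Dixon's criterion for 10 named genes, which chance alone does for about 1 in 20 groups. Many more named genes than these 10 were examined, so chance alone would give several of them. Cell 4 was the lowest for Nr2f1 (9.67, the next cell at 11.68), Cdkn1a (11.97, next 13.93) and Drd2 (13.04, next 14.56). Its Nr2f1 value lay under the lowest detected signal of that array (11.28). Cell 4 was the highest for Cdc20 (11.81, next 11.16), Gja1 (12.91, next 11.25) and Egr1 (13.64, next 11.64). Cell 1 was the lowest for Igf2bp1 (10.88, next 11.23) and the highest for Eef1a2 (11.38, next 10.51). Cell 2 was the lowest for Rps2 (9.40, next 15.31) and cell 3 for Tubb3 (14.07, next 15.30). For both genes the probe was saturated in the other 3 cells, which narrows the range between those.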

How the results depend on the processing

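The counts of probes called higher and lower in cells (32 and 172) depended on the settings, with more lower than higher calls under each alternative run. Most alternatives kept the detection rule, by which more probes entered through the microfluidic arrays, so no direction is read from this surplus. The counts were 11 and 76 without background correction, 51 and 288 with median centring and 58 and 265 with quantile normalization over the 7 arrays. With no filter on dim probes they were 96 and 244, and over probes detected on all 7 arrays 5 and 20. They were 200 and 644 at a limit of 1 log2 unit and 10 and 66 at 3 log2 units. Leaving out single arrays gave 36 to 180 higher and 213 to 324 lower calls, the most higher calls without cell 4 (180) and the most lower calls without microfluidic reaction 2 (324); without cell 2 there were 80 higher, and without microfluidic reactions 1 and 3 there were 72 and 51. Probes called without cell 4 included 27 of the 32 and 148 of the 172. The median difference (-0.09) was -0.21 after median centring and -0.20 from the signal values as deposited, 0.0265 with no filter on dim probes and 0.21 over probes detected on all 7 arrays, and -0.16 to 0.0059 without single arrays. The shares of called probes with the same sign in explant over control arrays (48.4% of higher, 51.5% of lower) were 42.1% of lower without background correction, 20.0% and 70.0% over probes detected on all 7 arrays, and 66.7% and 39.4% at 3 log2 units; without single arrays they were 48.0% to 58.7% and 45.9% to 57.9%. The cause of these shifts was not tested, except that stricter limits and detection leave fewer probes.

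Outside the odorant receptors, the list calls without cell 4, chosen after seeing the data, added Cd24a, Ccnb1, Emx2, Vip, Flt1, Rpl29 and Rps23 as higher. They added Scn2a, Rpl30, Rpl34 and Ndufa10 as lower. Of 182 odorant receptor genes compared without cell 4, 3 were called higher (1.65%, beside 2.19% of all compared probes) and 0 lower. Explant over control calls (2093 higher, 3670 lower) were 3804 higher with no filter on dim probes, and 1517 to 2271 and 2614 to 3960 without single arrays. Same-numbered explant and control arrays did not deviate together (correlations 0.07, -0.08 and -0.18), and the replicate block gave 1623 and 2970 calls. The labels give no unit that pairs a cell with a microfluidic reaction, so no paired analysis of these was run.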
